A study of Mus with 4 samples.

Results

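The genes described are 10 core genes of mitotic proliferation, Mki67, Top2a, Cdk1, Ccna2, Ccnb1, Aurkb, Birc5, Plk1, Cdc20 and Ube2c, out of 54532 Ensembl identifiers in the deposited count table. They were chosen by name as markers of dividing cells, by a rule that uses no measured value. Earlier results of these data were known when the genes were chosen. The table holds identifiers only, and the symbols were given with the identifiers when the genes were chosen. RNA sequencing was done on liver sinusoidal endothelial cells (LSECs), the cells that line the small blood channels of the liver. The 2 groups were 2 libraries from Pofut1 knockout mice (P1KO) and 2 from controls (CTL), all given the liver toxin carbon tetrachloride (CCl4). Per the series' title the deletion is endothelial; POFUT1 adds fucose to EGF-like repeats of proteins such as Notch receptors. The study asked how POFUT1 acts on LSECs and on hepatic stellate cells. The labels name neither the Cre driver, the strain, the age nor the sex of the mice, nor the time after CCl4, and do not say what the CTL genotype carries. They give liver and LSECs as the source, but their extraction protocol names heart ventricles. Cell type markers and Pofut1 itself were not analysed here, for lack of a table that pairs identifiers with symbols, so neither the cell type nor the deletion was checked in these libraries.

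A cell that enters division makes a burst of transcripts of this group in G2 phase and mitosis. Cyclins A2 and B1 activate the kinase CDK1, further kinases build the spindle and check its attachment to chromosomes, and the anaphase-promoting complex then marks cyclin B1 and securin for destruction so that the cell can leave mitosis. Adult LSECs mostly rest, and liver injury can bring them, and other liver cells, into the cell cycle. In bulk RNA a larger share of dividing cells and more of these transcripts per dividing cell cannot be told apart, and neither can dividing LSECs and dividing cells of another type in the preparation.

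In P1KO libraries, every one of the 10 genes had a higher mean than in CTL libraries, by 1.13-fold to 1.66-fold, with a median log2 fold change of 0.55. The median over all 15510 genes tested was -0.01. The test was passed by 2 genes, Mki67 at 1.52-fold and Ube2c at 1.52-fold (adjusted p below 0.05 in edgeR's quasi-likelihood test, with Benjamini-Hochberg adjustment over all genes tested), and by none in the direction of lower levels. Over all genes tested, 9.68% passed as higher, 9.84% as lower and 19.5% in either direction. Counted in either direction, 2 of 10 is a share near 19.5%. Both genes were higher, and 2 of 10 is above the 9.68% that passed as higher, a difference that was not tested. Neither gene passed without CTL1 or without CTL2, and Ube2c did not pass without KO3, where KO1 and KO3 are the P1KO libraries and CTL1 and CTL2 the controls. Without KO1, 8 of the 10 passed as higher, as did 17.2% of all genes tested in that fit. With all 4 libraries none was lower at an unadjusted p below 0.05 in edgeR (0 genes), and DESeq2 and limma-voom called 0 lower. All 10 fold changes were positive in these 3 fits, so no gene could be called lower there. At an unadjusted p below 0.05, 6 of the 10 were higher, against 16.7% of all genes tested. Both P1KO libraries lay above both CTL libraries for 9 of the 10 genes, against 30.5% of all genes tested; Cdc20 was the exception.

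The libraries held 17464769 to 17918834 counts, and each gene here had between 38 and 411 reads per library, so counting error alone is several percent or more for each value. Levels are given as CPM, reads relative to library size, scaled with TMM, an adjustment for library composition. The 2 P1KO libraries, named KO1 and KO3 after their columns, differed more than the 2 CTL libraries, with a biological coefficient of variation over all tested genes of 12.1% in P1KO and 3.23% in CTL. Over all genes 3027 were called with all 4 libraries, 129 without CTL1, 120 without CTL2, 5391 without KO1 and 5208 without KO3, and the part of the unequal spread in these counts was not tested. Since no label ties the libraries to separate mice, the spread behind each p-value may be technical.

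**Figure D1:**
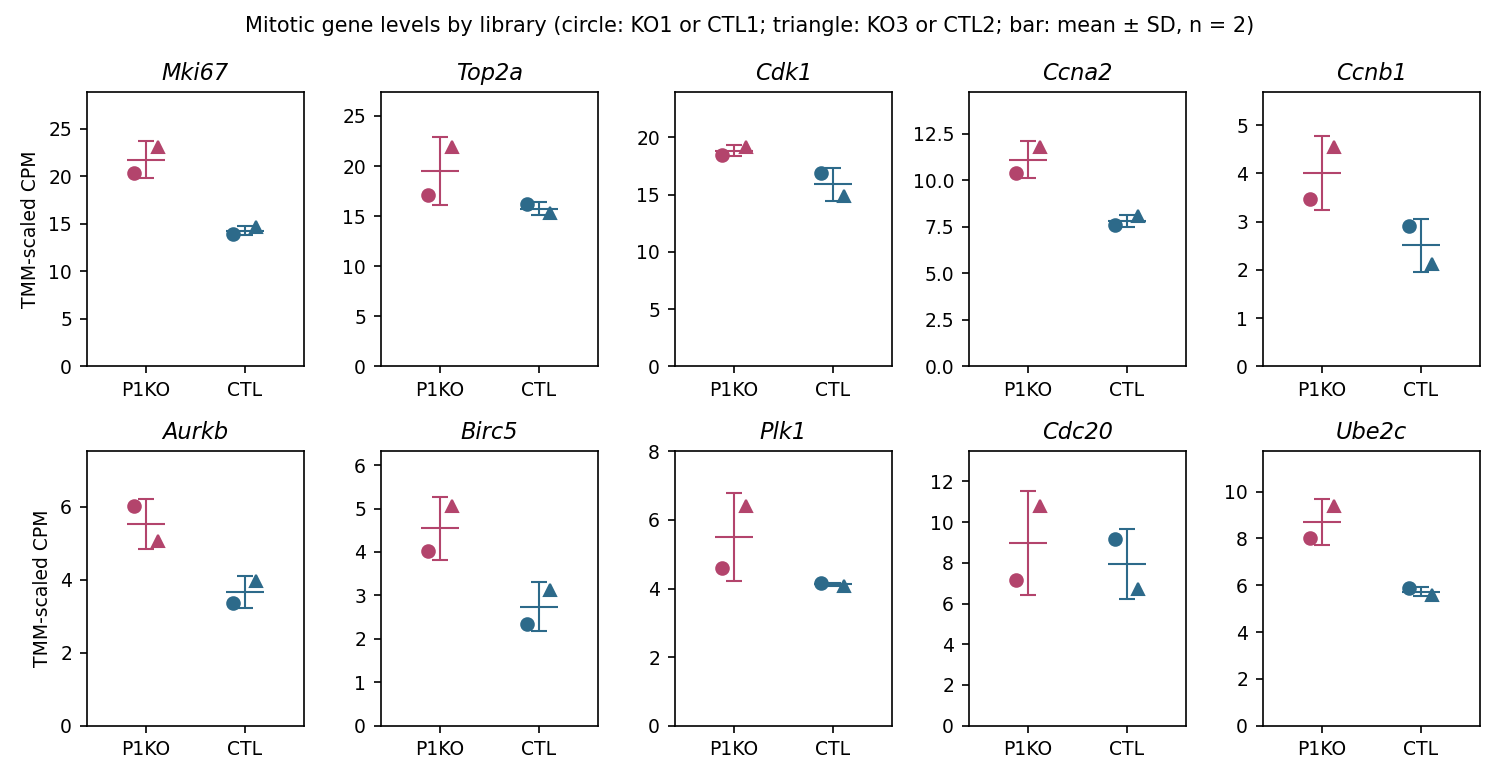
TMM-scaled CPM of each of the 10 mitotic genes (y axes from 0, a scale of its own per gene) in P1KO libraries (left of each panel) and CTL libraries (right); points are libraries, bars the mean ± SD of 2 libraries. Both P1KO points lie above both CTL points in 9 panels, and the groups overlap for Cdc20, where CTL1 stands at 9.17 CPM and KO1 at 7.16 CPM.

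Mki67 (ENSMUSG00000031004) encodes Ki-67, a protein that coats chromosomes in mitosis and is the usual stain for cycling cells. It had 358 reads in KO1 and 411 in KO3, against 245 in CTL1 and 261 in CTL2. Both knockout libraries stood well above both controls, and the gap between the groups was larger than the gap within either. Mki67 averaged 21.7 ± 1.94 CPM in P1KO and 14.3 ± 0.466 CPM in CTL (SD, n = 2 each). On the log2 scale the change was 0.60 ± 0.11 (SE), at an edgeR adjusted p of 0.0112. It was the smallest adjusted p of the 10 genes. Top2a (ENSMUSG00000020914), which encodes the topoisomerase that untangles sister DNA strands, had 301 reads in KO1 and 390 in KO3, against 285 in CTL1 and 273 in CTL2. KO1 was close to the controls and KO3 alone stood clearly above them. Its log2 fold change of 0.31 ± 0.14 (SE) did not pass (edgeR adjusted p = 0.171), with a 95% interval of 0.99-fold to 1.56-fold.

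Among the cyclins and their kinase the changes ran from 1.19-fold to 1.59-fold, and no gene passed. Cdk1 (ENSMUSG00000019942), the kinase that drives entry into mitosis, had 325 reads in KO1 and 341 in KO3, against 297 in CTL1 and 265 in CTL2. The P1KO libraries were nearly equal here, and the lower of them was only a little above CTL1. Its level was 18.8 ± 0.488 CPM in P1KO and 15.9 ± 1.47 CPM in CTL (SD, n = 2 each), a difference of 0.24 ± 0.12 (SE) on the log2 scale, at an edgeR adjusted p of 0.182. Ccna2 (ENSMUSG00000027715) encodes cyclin A2, which partners CDK2 in S phase and CDK1 in G2. Its reads numbered 183 in KO1 and 210 in KO3, against 133 in CTL1 and 144 in CTL2. The groups were apart by more than the gap within either, yet the adjusted p of 0.0517 in edgeR was just above the threshold. The mean was 11.1 ± 0.99 CPM in P1KO and 7.82 ± 0.345 CPM in CTL (SD, n = 2 each), which on the log2 scale is a change of 0.50 ± 0.15 (SE). Ccnb1 (ENSMUSG00000041431), the cyclin whose destruction ends mitosis, had the fewest reads of the 10 genes when each group's libraries were summed. It had 61 reads in KO1 and 81 in KO3, against 51 in CTL1 and 38 in CTL2. KO1 and CTL1 differed by only 10 reads. A log2 fold change of 0.67 ± 0.28 (SE) did not pass (edgeR adjusted p = 0.136), and its 95% interval of 1.02-fold to 2.50-fold was among the widest of the 10 genes.

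Of the mitotic kinases and the passenger complex, a set of proteins that moves from centromeres to the cell's midzone, no gene passed, with changes of 1.33-fold to 1.66-fold. Aurkb (ENSMUSG00000020897) encodes Aurora B, the kinase of that complex, which corrects faulty attachments of chromosomes to the spindle. It had 106 reads in KO1 and 90 in KO3, against 59 in CTL1 and 71 in CTL2. Aurkb was the only gene of the 10 with fewer scaled reads in KO3 than in KO1. The mean of 5.54 ± 0.684 CPM in P1KO compares with 3.67 ± 0.435 CPM in CTL (SD, n = 2 each), a difference of 0.59 ± 0.22 (SE) on the log2 scale, at an edgeR adjusted p of 0.098. Birc5 (ENSMUSG00000017716) encodes survivin, which anchors Aurora B at centromeres. Its reads were 71 in KO1 and 90 in KO3, against 41 in CTL1 and 56 in CTL2. Birc5 had the highest fold change of the 10 genes, 1.66-fold, on low counts that spread in both groups. At a log2 fold change of 0.73 ± 0.26 (SE) it reached an edgeR adjusted p of 0.0907. Plk1 (ENSMUSG00000030867), a kinase of centrosome maturation, spindle assembly and mitotic exit, had 81 reads in KO1 and 114 in KO3, against 73 in CTL1 and 73 in CTL2. Here KO1 lay near the controls and KO3 well above them. The log2 fold change of 0.42 ± 0.23 (SE) did not pass (edgeR adjusted p = 0.247).

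The last pair acts with the anaphase-promoting complex, and 1 of these 2 genes passed. Ube2c (ENSMUSG00000001403) encodes the ubiquitin-conjugating enzyme that starts ubiquitin chains on the complex's substrates. It had 141 reads in KO1 and 167 in KO3, against 103 in CTL1 and 100 in CTL2. The controls were almost equal and both knockout libraries stood above them. Ube2c averaged 8.70 ± 0.969 CPM in P1KO and 5.73 ± 0.189 CPM in CTL (SD, n = 2 each), a difference of 0.60 ± 0.17 (SE) on the log2 scale, at an edgeR adjusted p of 0.0453, close to the threshold. Cdc20 (ENSMUSG00000006398), the activator that brings substrates to the complex at the onset of anaphase, had 126 reads in KO1 and 192 in KO3, against 161 in CTL1 and 120 in CTL2. The order of the libraries was KO3, CTL1, KO1, CTL2, so the groups overlapped. Its mean of 8.97 ± 2.56 CPM in P1KO and 7.94 ± 1.73 CPM in CTL (SD, n = 2 each) gave a log2 fold change of 0.18 ± 0.24 (SE) and an edgeR adjusted p of 0.656. The 95% interval of 0.77-fold to 1.67-fold holds the fold changes of all the other 9 genes. Whether the genes differ from each other in their fold changes was not tested.

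**Figure D2:**
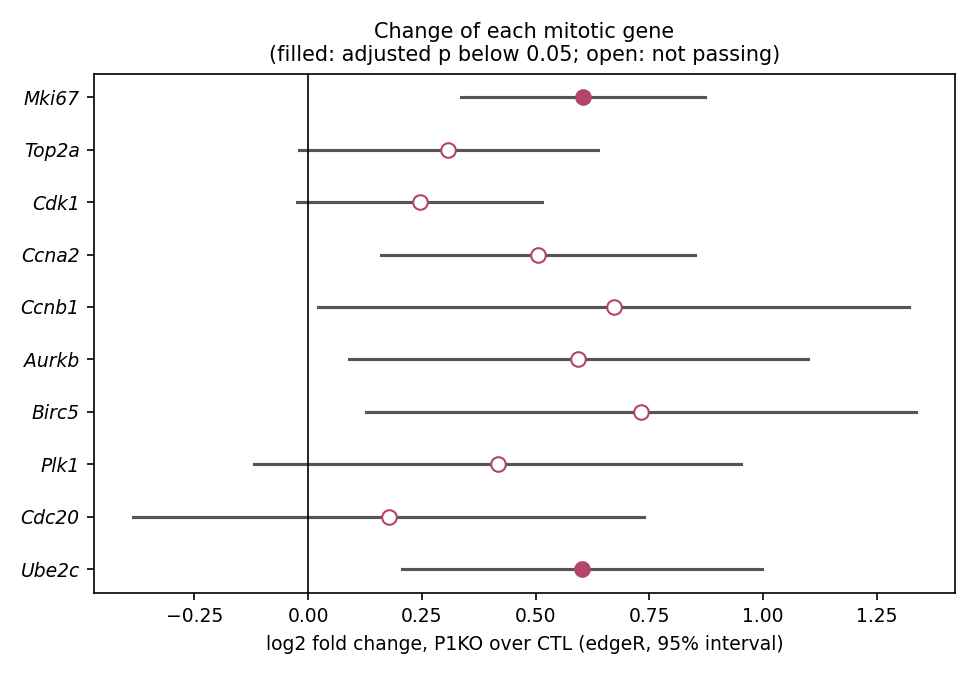
log2 fold change of P1KO over CTL for each mitotic gene (x axis), ordered by role from chromosome proteins at the top to the anaphase-promoting complex at the bottom, with the 95% interval of edgeR's fit. All 10 points lie right of 0, Mki67 (0.60) and Ube2c (0.60) are filled as passing at an adjusted p below 0.05, and the intervals of Top2a, Cdk1, Plk1 and Cdc20 reach below 0.

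The summed level of the 10 genes was 99.6 CPM in KO1 and 117 CPM in KO3, against 82.5 CPM in CTL1 and 78.4 CPM in CTL2. These sums rest on 1753 and 2086 reads in KO1 and KO3, and on 1448 and 1401 reads in CTL1 and CTL2. Both knockout sums were above both control sums, and the 2 knockout sums were further from each other than the 2 control sums. Each P1KO library was also set against the summed CTL reads, with exact binomial (Clopper-Pearson) 95% intervals that cover counting error only. For the summed genes the ratio was 1.24 for KO1 (1.17 to 1.31) and 1.46 for KO3 (1.38 to 1.54). Single genes were above 1 in 9 of 10 cases for KO1 and in 10 of 10 for KO3. Their intervals lay wholly above 1 for 6 genes in KO1 and for 10 in KO3. The same shares over all genes tested were not computed, so these counts have no background to be read against. In KO1 the intervals of Top2a, Ccnb1, Plk1 and Cdc20 held 1, and Cdc20 was below CTL there, at 0.902 times (0.726 to 1.12).

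The P1KO libraries were not alike for these genes. KO3 exceeded KO1 for 9 of the 10, with a median ratio of 1.21. The median log2 difference of KO3 and KO1 was 0.27 over the 10 genes and -0.01 over all tested genes. This difference exceeded counting error for 3 of the 10. They were Top2a at 1.28 times (1.10 to 1.49), Plk1 at 1.39 times (1.04 to 1.87) and Cdc20 at 1.51 times (1.20 to 1.90). The shares of all genes tested that rose or exceeded counting error within P1KO or within CTL were not computed. Between the CTL libraries, CTL2 exceeded CTL1 for 4 of the 10 genes, with a median ratio of 0.969. Only Cdc20 differed there by more than counting error, at 0.733 times (0.574 to 0.934). Cdc20 was therefore the gene with a difference beyond counting error within both groups, and the only one of the 10 whose groups overlapped.

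**Figure D3:**
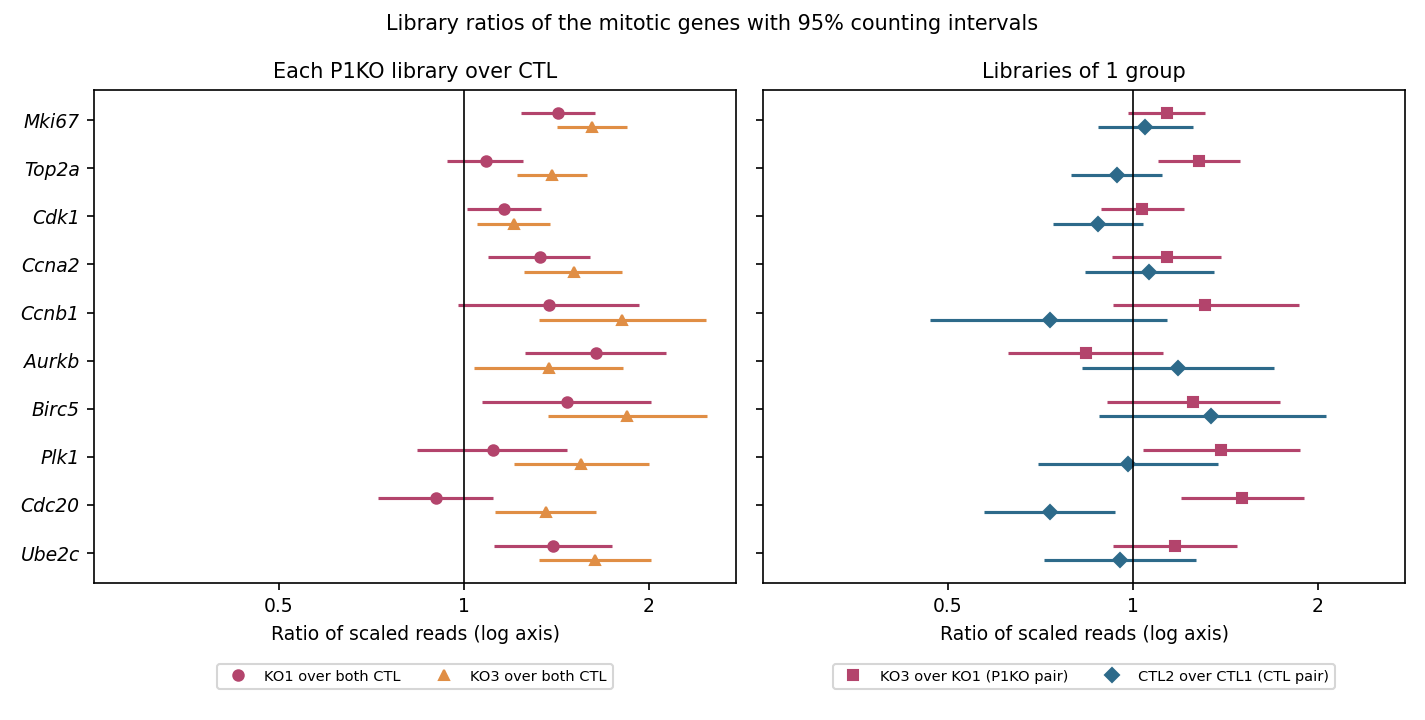
Ratios of scaled reads (log axis) for each mitotic gene with 95% counting intervals: left, KO1 and KO3 each over both CTL libraries summed; right, KO3 over KO1 within P1KO and CTL2 over CTL1 within CTL. All 10 KO3 intervals lie above 1 in the left panel, KO1 reaches 1 for 4 genes, and Cdc20 lies at 1.51 times for the P1KO pair and at 0.733 times for the CTL pair.

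Each gene's share of the summed CPM of the 10 genes moved by a few percentage points between libraries. Mki67 took 20.4% and 19.7% in KO1 and KO3, against 16.9% and 18.6% in CTL1 and CTL2. Top2a took 17.2% and 18.7% in KO1 and KO3, against 19.7% and 19.5% in CTL1 and CTL2. In both P1KO libraries the shares of Mki67, Birc5 and Ube2c were above both CTL shares, those of Top2a and Cdk1 were below them, and those of the other 5 genes overlapped. No test was run on shares, since each gene also enters the sum it is divided by. Gene lengths in transcripts were not used here, so shares and levels are not compared between genes.

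The genes lie apart in the genome, so neighbouring position is not a feature most of them share. In the reference gene table (GRCm38.p6, of which mm10, named in the submitters' processing notes, is another name) 3 of the 10 are on chromosome 11, Aurkb at chr11:69045624-69051664, Top2a at chr11:98992947-99024199 and Birc5 at chr11:117849237-117855743. On chromosome 7 are 2 genes, Plk1 at chr7:122159435-122169884 and Mki67 at chr7:135689784-135716450. The others are Ube2c at chr2:164769929-164772902, Ccna2 at chr3:36564865-36573038, Cdc20 at chr4:118432901-118437343, Cdk1 at chr10:69335146-69352912 and Ccnb1 at chr13:100778739-100786486. All are protein-coding.

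Other cell cycle genes could be read only from scran's table of mouse marker pairs, which gives genes by Ensembl identifier and orders pairs of genes by phase. In these pairs 9 of the 10 genes stand as the higher gene in at least 1 G2/M pair. Top2a is in no pair of any phase, so the pairs do not place it. Of the 10 genes, 6 are the higher gene in some G2/M pair and the lower in none. As the higher gene of at least 1 S phase pair stand 4 of the 10. The list of other G2/M genes held those that are the higher gene in some G2/M pair and the lower in none. Of its 101 identifiers, 99 were tested; 12 were higher and 8 lower in P1KO, and 79 did not pass. The median log2 fold change was 0.55 for the 10 genes, 0.08 for this list and -0.01 for all genes tested. A positive fold change was found for 61.6% of the G2/M list and for 48.9% of all genes tested. The share called higher, 12.1%, and the share called lower, 8.08%, stood beside 9.68% and 9.84% over all genes tested.

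By library, the median log2 difference from the CTL mean was 0.43 for KO1 and 0.60 for KO3 over the 10 genes, and 0.06 for KO1 and 0.09 for KO3 over the G2/M list. The S phase list gave 18 higher and 12 lower of 158 tested, with a median log2 fold change of 0.01. The G1 list gave 9 higher and 12 lower of 83 tested, with a median log2 fold change of 0.03. Both P1KO libraries lay above both CTL libraries for 9 of the 10 genes, for 49 of the 99 genes of the G2/M list (49.5%), for 36.1% of the S list, for 37.3% of the G1 list and for 30.5% of all genes tested. By this measure the G2/M list, too, had a higher share than all genes tested, although its median change was small. The 10 genes were named and the lists were built by rule, and no test of the difference between them was made.

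**Figure D4:**
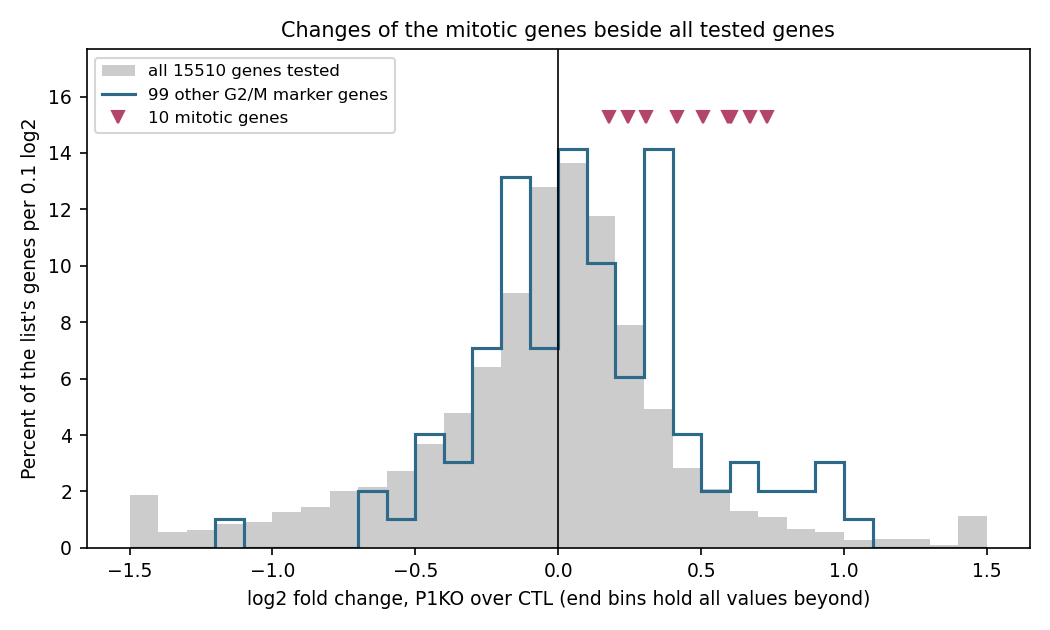
Distribution of the log2 fold change of P1KO over CTL (x axis) as a percentage of genes per step of 0.1 (y axis), for all 15510 genes tested (grey) and for 99 other G2/M marker genes (line), with the 10 mitotic genes as triangles at the top. The triangles run from 0.18 to 0.73, while the G2/M list has its median at 0.08.

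Within the G2/M list no symbol was paired with the identifiers, and 2 are given per direction. A place in the list rests on the marker pairs only, so whether a listed gene acts in cell division was not checked here. ENSMUSG00000051378 had 75 reads in KO1 and 76 in KO3, against 35 in CTL1 and 39 in CTL2, a log2 fold change of 1.03 ± 0.24 (SE, edgeR adjusted p = 0.0236). ENSMUSG00000027654 had 79 and 103 reads in KO1 and KO3, against 52 and 42 in CTL1 and CTL2, a log2 fold change of 0.95 ± 0.25 (SE, edgeR adjusted p = 0.0361). Both had a larger fold change than any of the 10 genes. The 2 deepest falls are given among called genes of the list with a mean of at least 1 CPM in the higher group. ENSMUSG00000019997 had 1335 and 1606 reads in KO1 and KO3, against 3153 and 3174 in CTL1 and CTL2. ENSMUSG00000096472 had 660 and 561 reads in KO1 and KO3, against 961 and 986 in CTL1 and CTL2. Their log2 fold changes were -1.10 ± 0.09 and -0.67 ± 0.09 (SE), with edgeR adjusted p of 0.000323 and 0.00312.

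Likeness to the group was measured as the root mean square distance, over the 4 libraries, between a gene's centred log2 CPM and the mean of the 10 genes. Of the 10, Ccna2 and Ube2c were closest to their common mean, at 0.05 and 0.06 log2, and Cdc20 was farthest, at 0.24 log2. The 3 nearest identifiers of the G2/M list lay at 0.05, 0.08 and 0.09 log2. None of these 3 passed the test itself, with edgeR adjusted p between 0.0977 and 0.252. With 4 libraries many genes can come this close, so the distances describe and do not single out.

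Under other processing of the same 4 libraries the 2 calls were not equally firm. Mki67 passed with DESeq2 size factors, library totals, DESeq2, limma-voom under either spread, no filter on low counts and a stricter filter of 5 CPM. Ube2c missed the threshold with library totals (adjusted p = 0.0553), with DESeq2 (0.134) and with no filter in edgeR (0.0938). Ccna2 was added with DESeq2 size factors, at an edgeR adjusted p of 0.0499. The share of all genes called higher in these fits was 10% with DESeq2 size factors, 8.87% with library totals, 7.91% with DESeq2 and 9.82% with limma-voom. It was 10.1% with a separate spread per group, 3.1% with no filter and 12.6% with the stricter filter. Against a 1.5-fold minimum change 0.761% of all genes passed as higher in edgeR, and with both CTL libraries summed into 1 it was 0.451%. In neither did any of the 10 genes pass (0 genes), and 0 and 1 had an unadjusted p below 0.05.

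The number of the 10 genes called varied with the library left out. Mki67 passed without KO1 and without KO3, at edgeR adjusted p of 6.56e-07 and 0.000679, and did not pass without CTL1 or without CTL2. With KO1 left out, 8 of the 10 genes passed as higher, where 17.2% of all genes tested did. Cdk1 and Aurkb were the 2 that did not pass in that fit. With KO3 left out, 2 passed, Mki67 and Aurkb, where 17% of all genes did, and Ube2c reached an adjusted p of 0.0701. With CTL1 left out, 0 passed in edgeR and 2 had an unadjusted p below 0.05, where 0.374% of all genes passed as higher. With CTL2 left out, 0 passed and 2 had an unadjusted p below 0.05, where 0.348% passed as higher. In these last 2 fits Mki67 stayed at a log2 fold change of 0.57 and 0.63 and Ube2c at 0.63 and 0.56, so the calls were lost with values that moved little. Cdc20 turned to -0.15 without KO3 and to -0.035 without CTL2, neither passing. Each of these fits takes the spread of the group with 1 library from the other group.

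**Figure D5:**
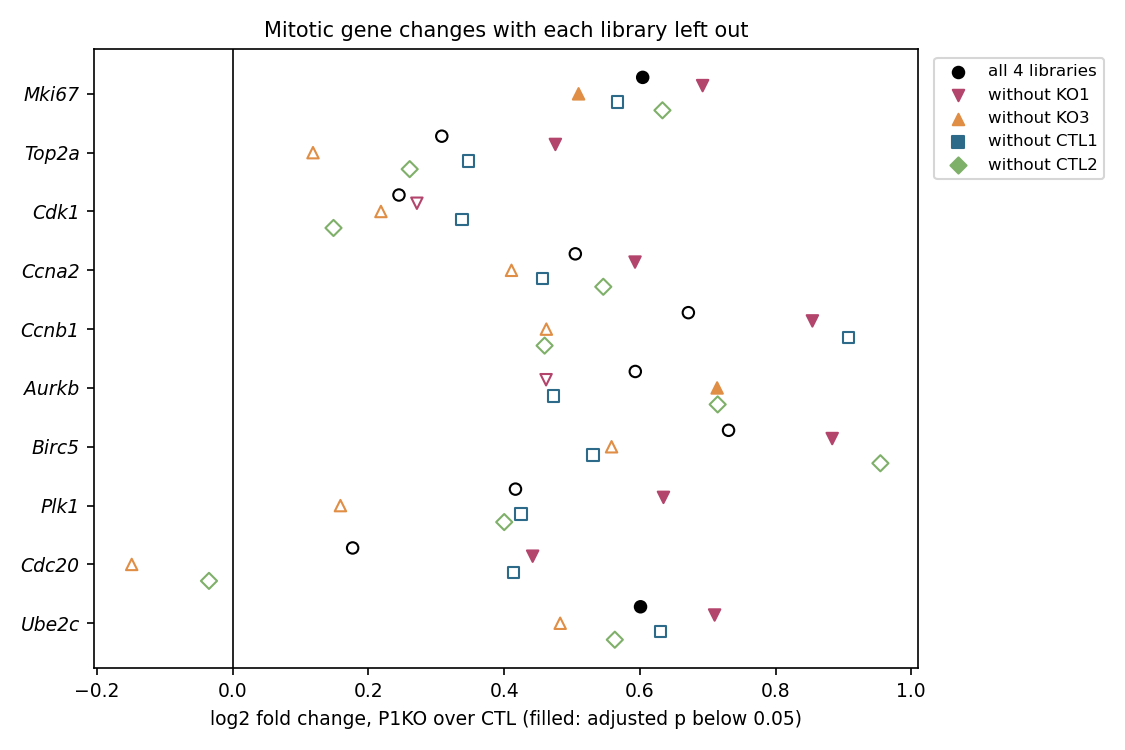
log2 fold change of P1KO over CTL (x axis) of each mitotic gene in the fit of all 4 libraries and in the 4 fits that leave out 1 library; filled points pass at an adjusted p below 0.05. The values for Mki67 lie between 0.51 and 0.69 in the 4 fits, Cdc20 crosses 0 in 2 of them, and 8 genes pass without KO1, against 2 without KO3 and 0 without either CTL library.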

How the data were processed

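The authors deposited 1 table of raw read counts per Ensembl gene identifier for 4 libraries. The submitters' processing notes name featureCounts 1.5.0-p3, HISAT2 2.0.5, fastp and CASAVA, and build mm10. Strand setting and annotation release: not given in the sources used here, so reads of overlapping genes may be misassigned. All 4 columns were used (0 left out). Columns CTL1, CTL2 and KO1 match a sample title each; KO3 matches none by number and was placed in P1KO without one. The reference gene table matched 0 identifiers, so 18 gene lists by symbol, cell type markers among them, were not analysed. It holds all 10 genes described by symbol. Members, lists and tests were chosen with earlier results of these data known.

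With edgeR 4.0.16 in R 4.3.3, filterByExpr left 15510 genes, all 10 members among them. The quasi-likelihood F-test with TMM scaling compared P1KO with CTL, with no covariate, and Benjamini-Hochberg adjustment over all genes tested at 0.05. The SE is the log2 fold change divided by the square root of F, and 95% intervals use it with the fit's degrees of freedom. Centred values are log2 CPM with a prior count of 2. All 10 members are named; G2/M identifiers (scran 1.30.0) are the 2 largest called changes per direction with a mean of at least 1 CPM in the higher group. The script was tested on simulated counts. Alternatives were DESeq2 size factors, library totals, DESeq2 1.42.0, limma-voom (limma 3.58.1) with a common or a separate spread, other filters, a minimum change, both CTL libraries summed, and each library left out.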

Additional observations from a re-analysis of the deposited data

How the results depend on the processing

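The 10 genes kept a positive fold change in every alternative that tested them, other than Cdc20 with a library left out. The number called higher was 3 with DESeq2 size factors (Ccna2 added), 2 with limma-voom under either spread, 1 (Mki67) with library totals, with DESeq2 and with no filter on low counts, and 0 against a 1.5-fold minimum change and with both CTL libraries summed. Against the minimum change 0 genes had an unadjusted p below 0.05 in edgeR, and the share of all genes at that threshold was not computed. A filter of at least 5 CPM tested 6 of the 10 and called 2. Leaving out 1 library gave 0 to 8 genes called higher, 0 called lower, and Cdc20 between -0.15 and 0.44. The median log2 fold change of the 10 genes stayed between 0.44 and 0.61 in the alternatives that tested all of them. Over all genes, 1633 were called with no filter, 270 against the minimum change, 152 with the CTL libraries summed and 120 to 5391 with 1 library left out. The cause of these differences was not tested. With no filter 26155 genes entered the fit and its adjustment, against 15510 as reported. Mki67 passed in 9 of 13 alternatives and Ube2c in 5 of 13. No paired analysis was possible because KO3 carries a number that matches none of the titles. In the summed reads, 9 of the 10 ratios of P1KO over CTL had counting intervals above 1, down to 1.19 for Cdk1. How many of all genes tested had such intervals was not computed. For Cdc20 the interval held 1. These intervals cover counting error only, and the part of counting depth in which genes passed was not tested.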
